A study of Homo sapiens with 6 samples.

Results

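The AP-1 subunits measured here are 8 genes of human M14 cells, FOS, FOSB, FOSL1, FOSL2, JUN, JUNB, JUND and ATF3, taken by symbol from a table of 26748 genes. All 8 were in the table, and all 8 passed the filter on low values, a mean of at least 10 normalised counts, as did 15598 genes in all. M14 is an established human melanoma line, and no genetic change or drug is given for either culture. The cells were grown without attachment as floating multicellular spheres, called melanospheres (3D, 3 libraries), or attached to plastic in conventional culture (2D, 3 libraries). Polyadenylated RNA was sequenced, and whether replicates came from separate cultures is not labelled. The p-values therefore measure the spread between libraries alone, which may be technical.

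AP-1 is a family of transcription factors that bind DNA as pairs of basic leucine zipper proteins. FOS proteins pair with JUN proteins, JUN proteins can also pair with each other, and ATF3 pairs with itself or with JUN proteins. The preferred DNA sites are the TPA response element (searched for below in the broader form TGANTCA, with N for any base) and the cyclic AMP response element (CRE, TGACGTCA). FOS, FOSB, JUN and JUNB are early-response genes, transcribed within minutes of serum, growth factor or stress signals through ERK, JNK and p38 kinases, and their transcripts decay fast. FOSL1 and FOSL2 encode the proteins FRA-1 and FRA-2, which appear later and last longer, JUND is expressed steadily in many resting cells, and ATF3 is induced by stress, among others through ATF4.

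ATF3 and JUND fell in melanospheres, in every library and under every setting tried. The other 6 members did not pass the test, and in all 6 the 3D and 2D libraries overlapped. FOS, FOSB and JUNB were higher in the same pair of libraries, 2D replicate 3 and 3D replicate 2, than in the other replicates of those cultures, JUN was mainly higher in 3D replicate 2, and FOSL2 was lower in both. In that pair of libraries EGR1 and some other early-response genes were high as well. Of 17 with a mean of at least 100, 4 were higher by a log2 of 1 or more in both. Over 20 tested early-response genes the median log2 difference from the other replicates was 1.44 in 2D replicate 3 and 0.58 in 3D replicate 2. Over all tested genes it was 0.01 and -0.01.

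Promoter sequence is shown for 6 members, 4 that were high in at least 1 of those 2 libraries (FOS, FOSB, JUN and JUNB) and 2 that were not (FOSL2 and JUND). RefSeq windows on GRCh38.p14 were found for 7 of the 8 members, FOSL1 being the exception, and the 250 bases before the start that RefSeq annotates were read on the gene's own strand. The RefSeq start can lie downstream of the gene start in the gene coordinates given below. By those coordinates the windows of JUN, FOSL2 and the downstream ATF3 start lie inside the gene. Those of FOS and of the upstream ATF3 start lie partly inside it. The windows are chr14:75278578-75278827 (+) for FOS, chr19:45467746-45467995 (+) for FOSB, chr1:58784048-58784297 (-) for JUN, chr19:12791236-12791485 (+) for JUNB, chr2:28392608-28392857 (+) for FOSL2 and chr19:18281623-18281872 (-) for JUND. Capitals mark letters matching TGACG (the core of a CRE), TGACGTCA, TGACATCA (an AP-1 site known from the JUN promoter), TATAAA or CCAAT, on either strand; TGACG lies within TGACGTCA.
FOS: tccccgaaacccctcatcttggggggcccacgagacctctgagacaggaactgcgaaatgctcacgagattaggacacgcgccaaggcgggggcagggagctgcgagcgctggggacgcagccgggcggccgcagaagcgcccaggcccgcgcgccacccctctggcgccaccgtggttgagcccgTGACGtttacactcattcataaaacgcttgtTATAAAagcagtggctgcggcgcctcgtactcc
FOSB: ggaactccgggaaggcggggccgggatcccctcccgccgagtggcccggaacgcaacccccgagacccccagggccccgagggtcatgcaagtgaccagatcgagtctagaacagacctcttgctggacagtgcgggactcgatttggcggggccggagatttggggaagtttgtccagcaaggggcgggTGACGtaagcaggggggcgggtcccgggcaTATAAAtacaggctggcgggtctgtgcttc
JUN: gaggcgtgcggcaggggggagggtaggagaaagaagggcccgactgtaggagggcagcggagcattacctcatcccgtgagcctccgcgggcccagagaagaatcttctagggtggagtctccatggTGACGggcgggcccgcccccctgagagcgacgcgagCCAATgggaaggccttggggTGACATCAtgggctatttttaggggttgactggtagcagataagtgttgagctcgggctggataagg
JUNB: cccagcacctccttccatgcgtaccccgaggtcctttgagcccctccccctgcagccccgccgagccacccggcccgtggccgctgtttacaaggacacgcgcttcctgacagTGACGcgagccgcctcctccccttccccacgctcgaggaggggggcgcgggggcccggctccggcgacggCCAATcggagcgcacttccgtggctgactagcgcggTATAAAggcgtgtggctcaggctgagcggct
FOSL2: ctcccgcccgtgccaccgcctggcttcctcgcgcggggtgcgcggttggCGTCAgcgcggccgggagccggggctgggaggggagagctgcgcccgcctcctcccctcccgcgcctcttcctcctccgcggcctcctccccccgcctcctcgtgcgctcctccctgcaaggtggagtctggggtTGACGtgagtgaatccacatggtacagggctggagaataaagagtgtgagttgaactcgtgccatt
JUND: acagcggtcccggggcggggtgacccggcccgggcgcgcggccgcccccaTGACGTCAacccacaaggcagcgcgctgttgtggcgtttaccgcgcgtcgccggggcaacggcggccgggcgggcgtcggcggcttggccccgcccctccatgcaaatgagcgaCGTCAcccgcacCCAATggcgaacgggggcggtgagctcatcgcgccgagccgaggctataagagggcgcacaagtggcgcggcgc

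In FOS, TGACG lay 64 to 60 bases and TATAAA 33 to 28 bases before the start. FOSB had nearly the same spacing, TGACG at 60 to 56 and TATAAA at 30 to 25 bases. JUNB held TGACG at 137 to 133, CCAAT at 67 to 63 and TATAAA at 31 to 26 bases. JUN held TGACATCA at 67 to 60 and TGACG at 123 to 119 bases, with no TATAAA in the window. JUND had the full TGACGTCA at 200 to 193 bases, and FOSL2 had TGACG in each orientation, at 201 to 197 and 66 to 62 bases. Of 2 RefSeq windows for ATF3, the one for the upstream start (chr1:212565157-212565406) held TGACATCA at 123 to 116 bases, and the one for the downstream start (chr1:212614768-212615017) held TATAAA at 230 to 225 bases. TGANTCA was in none of the members' windows. Among 35116 RefSeq windows of the same length, TATAAA was in 10.7%, TGACG in 21.2%, TGACGTCA in 1.65%, TGACATCA in 2.37%, CCAAT in 32% and TGANTCA in 6.57%. A match of letters describes the sequence and is not a measured binding site.

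Values are normalised counts, which are read counts that the authors divided by a size factor for each library. Changes are log2 of 3D over 2D on values plus 1, from limma fitted across all 15598 tested genes with Benjamini-Hochberg adjustment, called at an adjusted p under 0.05. In that fit 24.1% of genes were called, 12.5% higher and 11.6% lower in 3D, 1950 and 1816 genes. Scaling to equal library totals gave 2391 higher and 1253 lower and moved the median change of all genes from -0.02 to 0.11. Of the 8 members, 0 were called higher and 2 lower, ATF3 and JUND. All 3D libraries lay below all 2D libraries for the same 2 members, as for 22.6% of all tested genes, and above them for 0 members, against 20.5% of all tested genes.

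ATF3 (ENSG00000162772, chr1:212565334-212620777 on GRCh38) showed the largest change among the members. It had 279, 332 and 265 normalised counts in 3D libraries 1, 2 and 3, against 2636, 2167 and 2538 in 2D libraries 1, 2 and 3. The lowest 2D library was far above the highest 3D library, and the 3 libraries of each culture lay close together. The means were 292 ± 34.9 in 3D and 2447 ± 247 in 2D (SD, n = 3 each), a log2 change of -3.06 (SE 0.18, limma adjusted p = 0.00011), the 7th smallest p of all tested genes. Leaving out each library in turn gave limma changes between -3.16 and -2.998, called in 6 of 6 fits. In bulk RNA, fewer cells that express a gene and less of its RNA per cell cannot be told apart.

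JUND (ENSG00000130522, chr19:18279760-18281622) is the JUN protein that is present in most unstimulated cells. It had 4258, 4534 and 4146 normalised counts in the 3D libraries, against 9248, 7705 and 9611 in the 2D libraries. Every 3D library was near the same level, with a coefficient of variation of 4.63%, and every 2D library was higher. The means were 4312 ± 200 in 3D and 8855 ± 1012 in 2D (SD, n = 3 each), a log2 change of -1.03 (SE 0.17, limma adjusted p = 0.00504). It was called in 6 of 6 fits that left out a library, with limma adjusted p between 0.00113 and 0.0374.

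**Figure D1:**
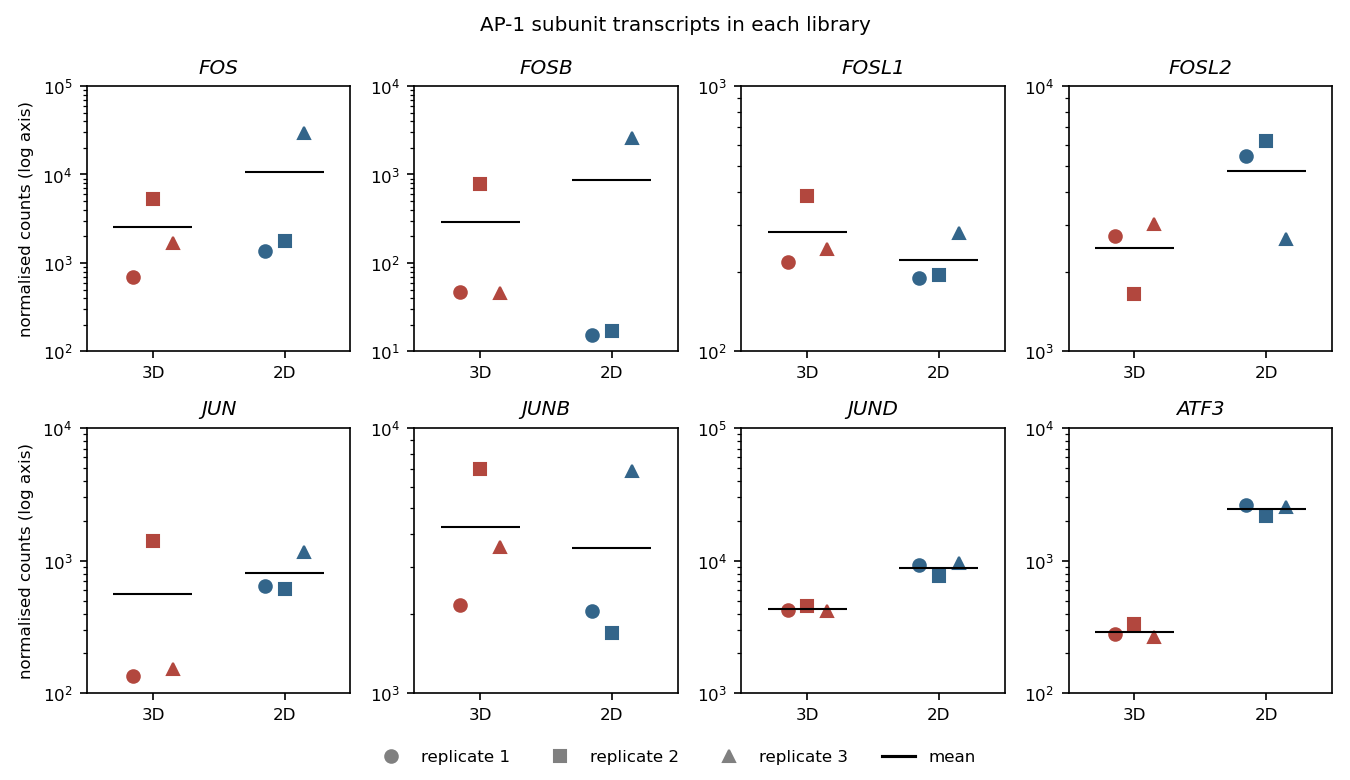
Normalised counts of each AP-1 subunit (log axis) in the 3 libraries of 3D, left, and the 3 of 2D, right, with the mean of each culture as a bar. ATF3 and JUND separate by culture, while FOS, FOSB and JUNB have their highest values in 3D replicate 2 and 2D replicate 3 within their cultures.

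FOS (ENSG00000170345, chr14:75278774-75282230) encodes the founding FOS subunit. It had 698, 5343 and 1691 normalised counts in the 3D libraries, against 1360, 1755 and 29289 in the 2D libraries. Replicate 3 of 2D was 18.8 times the mean of the other 2D libraries, and replicate 2 of 3D was 4.47 times the mean of the other 3D libraries. The means, 2577 ± 2446 in 3D and 10801 ± 16012 in 2D (SD, n = 3 each), had standard deviations near or above them. The log2 change was -1.16 (SE 1.14, limma adjusted p = 0.477), and it was 0.26 without 2D replicate 3, the only library whose removal turned its sign.

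FOSB (ENSG00000125740, chr19:45467995-45475179), a close relative of FOS, spread most. It had 46.4, 776 and 45.4 normalised counts in the 3D libraries, against 15.2, 17.1 and 2592 in the 2D libraries. As recovered reads these were 50, 801 and 44 in 3D, against 16, 16 and 2521 in 2D. Replicate 3 of 2D was 160 times the mean of the other 2D libraries, the highest excess on the log2 scale of all 15598 tested genes, and replicate 2 of 3D was 16.9 times the mean of its fellows, the 7th highest. The log2 change was 0.39 (SE 1.90, limma adjusted p = 0.898). It was 2.80 on leaving out 2D replicate 3, but -0.96 for 3D replicate 2, -0.86 for replicate 1 of 2D and -0.78 for replicate 2 of 2D, none of them called.

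JUNB (ENSG00000171223, chr19:12791496-12793315) encodes a JUN protein that activates many promoters less than JUN does. It had 2151, 7023 and 3571 normalised counts in the 3D libraries, against 2046, 1687 and 6905 in the 2D libraries. Replicate 2 of 3D and replicate 3 of 2D reached nearly the same level, 2.46 and 3.70 times the mean of their fellows. The log2 change was 0.39 (SE 0.57, limma adjusted p = 0.638), 1.02 on leaving out 2D replicate 3 and -0.05 on leaving out 3D replicate 2. Of its exonic bases 14.2% overlap HOOK2 on the other strand, and the library kit does not mark strand, so reads there cannot be told apart. HOOK2 itself had 813, 541 and 999 normalised counts in 3D, against 332, 349 and 534 in 2D, fewer in every library than JUNB.

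JUN (ENSG00000177606, chr1:58780788-58784327) encodes the subunit phosphorylated by JNK. It had 135, 1401 and 153 normalised counts in the 3D libraries, against 643, 617 and 1165 in the 2D libraries. Replicate 2 of 3D stood above every 2D library at 9.72 times the mean of the other 3D libraries, while those lay below every 2D library. The log2 change was -1.33 (SE 0.79, limma adjusted p = 0.240). Without 3D replicate 2 it was -2.42 (limma adjusted p = 0.00604).

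FOSL2 (ENSG00000075426, chr2:28392448-28417312) ran opposite to FOS and FOSB. It had 2714, 1641 and 3011 normalised counts in the 3D libraries, against 5466, 6184 and 2659 in the 2D libraries. The same pair of libraries was low, 3D replicate 2 at 0.573 and 2D replicate 3 at 0.456 times the mean of their fellows. The log2 change was -0.91 (SE 0.35, limma adjusted p = 0.0859), and without 2D replicate 3 it was -1.29 (limma adjusted p = 0.00354). DESeq2 on the recovered reads of all 6 libraries gave -0.93 with an adjusted p of 0.0376.

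FOSL1 (ENSG00000175592, chr11:65892049-65900573) encodes FRA-1, a protein that ERK signalling stabilises. It had 218, 385 and 244 normalised counts in the 3D libraries, against 190, 194 and 279 in the 2D libraries. Its means of 282 ± 89.8 in 3D and 221 ± 50.1 in 2D (SD, n = 3 each) gave a log2 change of 0.33 (SE 0.28, limma adjusted p = 0.413).

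Without 2D replicate 3, limma called 3 members lower, ATF3, JUND and FOSL2, where 23.0% of all tested genes were called lower. Without 3D replicate 2 it called 3 lower, ATF3, JUND and JUN, where 9.03% of tested genes were. With both left out, 2 libraries per culture remained, and 4 members were called lower (29.5% of tested genes) and 2 higher (28.4% of tested genes). The lower ones were ATF3 (log2 -3.13), JUN (-2.12), FOSL2 (-1.02) and JUND (-1.01). The higher ones were FOSB (1.45, limma adjusted p = 0.0046) and JUNB (0.58, limma adjusted p = 0.0307), while FOS had -0.51 (limma adjusted p = 0.168) and FOSL1 0.26 (limma adjusted p = 0.230). The pair was left out with its values known, so these calls describe the other 4 libraries and are no independent evidence.

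**Figure D2:**
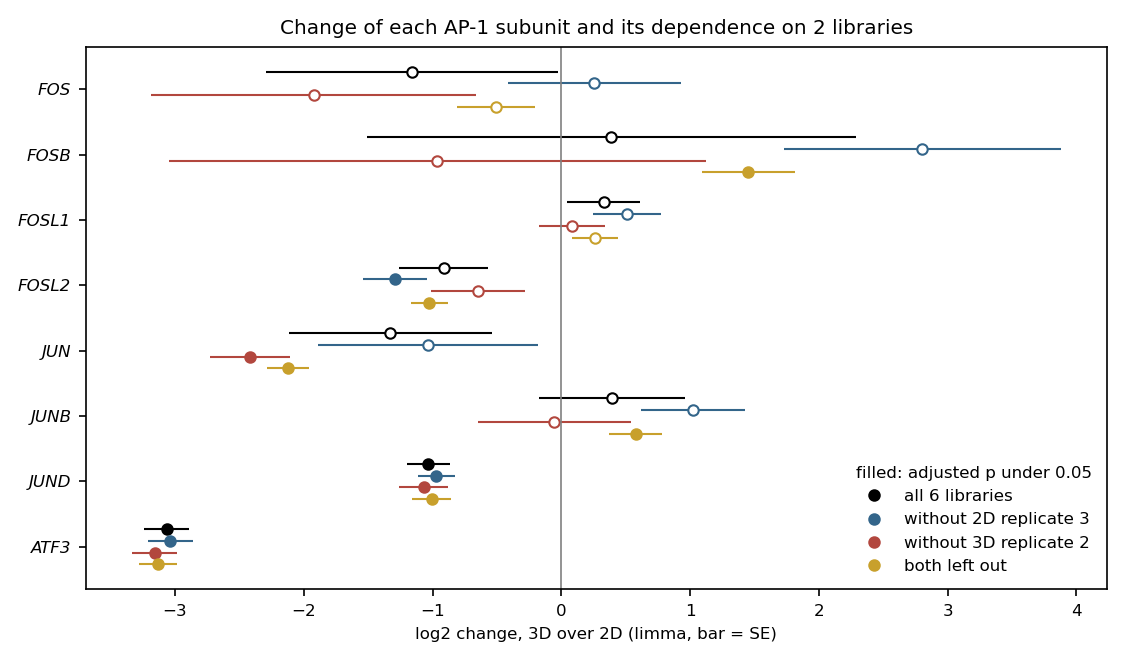
Log2 change of each member, 3D over 2D, with its standard error, in 4 limma fits that use all 6 libraries, leave out 2D replicate 3, leave out 3D replicate 2, or leave out both. Filled points have an adjusted p under 0.05. ATF3 near -3 and JUND near -1 are filled in all 4, and FOSB ranges from -0.96 to 2.80.

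The excess of a library was taken as its log2 value minus the mean log2 value of the other libraries of its culture. FOSB had an excess of 7.24 in 2D replicate 3 and 4.05 in 3D replicate 2, FOS 4.24 and 2.30, and JUNB 1.89 and 1.34. These 3 of 8 members exceeded 1 in both libraries, as did 42 of 11094 tested genes with a mean of at least 100, or 0.379%, a limit set after the data were seen because low genes can reach 1 on a few reads. JUN had 0.89 and 3.27, FOSL1 0.54 and 0.74, ATF3 0.09 and 0.28, JUND 0.19 and 0.11, and FOSL2 -1.13 and -0.80. By the smaller of the 2 excesses, FOSB was 1st, FOS 4th and JUNB 19th among the 10464 of these genes that code for protein. The 2 libraries were themselves singled out by the values of members, FOS among them. The members' counts and ranks here are therefore a description and no independent evidence.

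Some other early-response genes shared the excess. EGR1, a zinc finger factor induced through the same signals, had 284, 2008 and 673 normalised counts in 3D, against 138, 209 and 16787 in 2D, and was named after its values were seen. Of 17 early-response genes with a mean of at least 100, 4 exceeded 1 in both libraries, EGR1, ARC, KLF2 and DUSP1. Over the 20 tested early-response genes the median excess was 1.44 in 2D replicate 3 and 0.58 in 3D replicate 2. Over all tested genes it was 0.01 and -0.01. A few early-response genes were below the other replicates in both libraries, such as MYC (-0.36 and -0.61) and NR4A3 (-0.75 and -0.17). Of 16 AP-1 target genes with a mean of at least 100, 2 exceeded 1 in both libraries, CCN1 and CCN2. Of 10 genes of ERK output 1 did, DUSP6. None of 27 kinases of the ERK, JNK and p38 pathways or 11 factors that act on the FOS and JUN promoters did. Nor did any of 12 other bZIP partners or 9 genes of AP-1 protein turnover. Of all tested genes with such a mean 0.379% did, so finding none in lists this short does not set them apart.

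**Figure D3:**
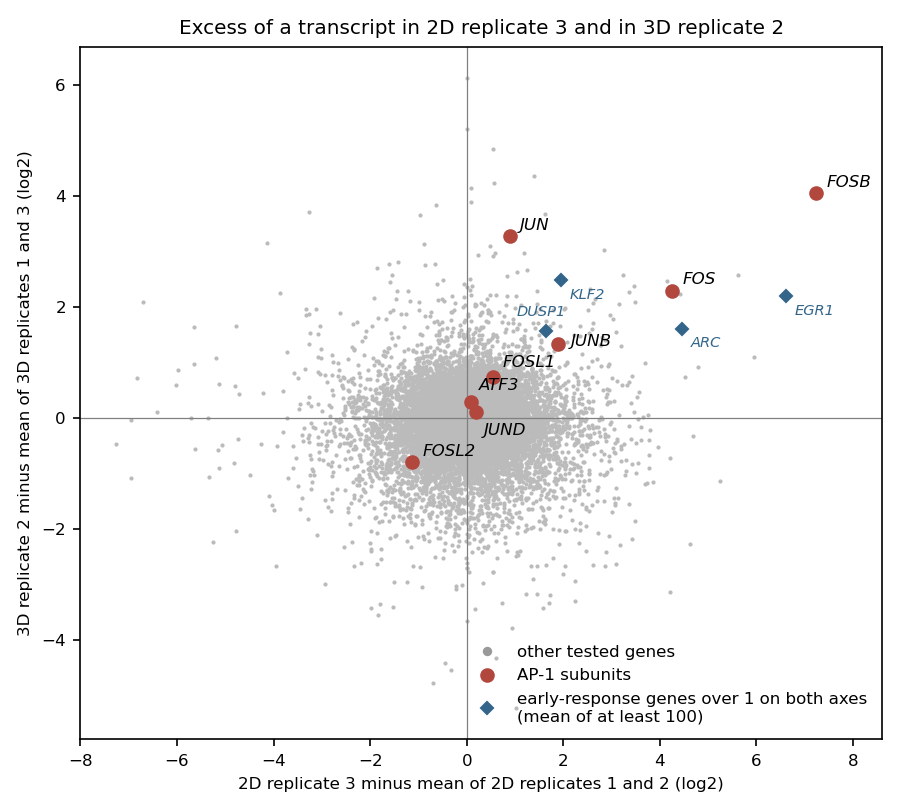
Excess of each tested gene in 2D replicate 3 (x axis) and in 3D replicate 2 (y axis), as log2 over the mean of the other libraries of that culture. FOSB lies at 7.24 and 4.05 and FOS at 4.24 and 2.30, beside EGR1, while ATF3 and JUND lie near 0 on both axes.

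Those 2 libraries also differed from their fellows across all genes. Pearson's r of log2 values was 0.987 between 3D replicates 1 and 3 but 0.966 to 0.967 between them and 3D replicate 2, and 0.984 between 2D replicates 1 and 2 but 0.943 to 0.945 between them and 2D replicate 3. With the 3D libraries, 2D replicate 3 had an r of 0.928 to 0.935, against 0.877 to 0.891 for 2D replicates 1 and 2. In 2D replicate 3, 10.8% of tested genes exceeded 1, and in 3D replicate 2, 3% did. Recovered totals were alike, 16567763 to 17809357 reads in 3D and 16918892 to 19954987 in 2D, with 22458 to 23572 and 20841 to 21772 genes detected. Of 10 melanoma markers, 4 passed the filter, and MITF fell to 288 ± 19.0 in 3D, against 1131 ± 215 in 2D (SD, n = 3 each). SOX10, MLANA, TYR and S100B were at most 14.8 normalised counts in every 3D library and at most 37.0 in every 2D library, and PAX3 was at 0 in 3D. Other melanoma markers were present, PMEL with 620 to 1377 in 3D and 227 to 753 in 2D and CSPG4 with 911 to 1543 in 3D and 782 to 950 in 2D, while DCT was at 0.619 ± 1.07 in 3D and 70.0 ± 42.4 in 2D (SD, n = 3 each). The 5 fibroblast markers in the table summed to 9263 to 12212 in 3D and 2042 to 6547 in 2D, the highest 2D sum being replicate 3, and 1 of them, PDGFRB, exceeded 1 in both libraries, with DCN at 0 in 2D. Of the other marker lists, 5 leukocyte markers summed to 138 to 211 in 3D and 63.9 to 112 in 2D with CD68 at 0 in 2D. The 5 endothelial markers summed to 138 to 188 in 3D and 39.5 to 319 in 2D, with KDR at 0 in 3D and at most 2.135 in 2D. Among them PECAM1 rose, with 94.6, 154 and 101 in 3D, against 0, 0 and 9.25 in 2D. CDH5 made up most of the highest 2D sum, with 268 in replicate 3. The 5 epithelial markers summed to 30470 to 41717 in 3D and 22295 to 59678 in 2D. Most of the epithelial sum was KRT8 and KRT18, while CDH1 (5.62 ± 2.74 in 3D, 92.3 ± 20.2 in 2D) and EPCAM (172 ± 35.8 in 3D, 423 ± 55.8 in 2D; SD, n = 3 each) fell. The part of these differences in the members' values was not tested.

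Levels of different members were compared as normalised counts per kilobase of exon, over all annotated exonic bases, which for FOS include retained introns. In 3D the order was JUNB (2334 ± 1377), JUND (2315 ± 107), FOS (796 ± 755), FOSL2 (343 ± 101), JUN (159 ± 205), FOSL1 (150 ± 47.6), ATF3 (72.3 ± 8.64) and FOSB (52.1 ± 76.0). In 2D it was JUND (4753 ± 543), FOS (3336 ± 4945), JUNB (1948 ± 1601), FOSL2 (666 ± 260), ATF3 (606 ± 61.3), JUN (228 ± 87.3), FOSB (158 ± 268) and FOSL1 (117 ± 26.5), each mean ± SD with n = 3. The 2D mean of FOS rests on replicate 3 (9045), since it had 420 and 542 in replicates 1 and 2, below JUNB and FOSL2 there. Neighbours in these orders overlapped between libraries, except JUND above FOS and FOSL1 above ATF3 in 3D, and JUNB above FOSL2 and ATF3 above JUN in 2D. Dividing by the longest transcript, a choice made after the data were seen, ended both 3D exceptions, and in 2D placed ATF3 (1164 ± 118) above FOSL2 (711 ± 278) and the mean of FOS above that of JUND. ATF3 stood above FOSL1 in 3 of 3 libraries of 2D by either length, and below it in 3 of 3 libraries of 3D by exonic length but 2 of 3 by the longest transcript.

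The summed FOS family level per kilobase (FOS, FOSB, FOSL1 and FOSL2) was 719, 2223 and 1080 in 3D, against 1287, 1512 and 10031 in 2D (exact permutation p = 0.5). The summed JUN family level was 3505, 6688 and 4230 in 3D, against 6270, 5237 and 9282 in 2D (exact permutation p = 0.3). Neither sum separated the cultures, and 3 libraries against 3 cannot give a two-sided p below 0.1.

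Within the FOS family the leading transcript differed between libraries of the same culture. FOS made up 30.0%, 74.2% and 48.3% of the summed level in 3D, against 32.6%, 35.8% and 90.2% in 2D. FOSL2 made up 52.8%, 10.3% and 38.9% in 3D, against 59.3%, 57.1% and 3.70% in 2D. FOSL2 thus led in 3D replicate 1 and in 2D replicates 1 and 2, and FOS led in the other libraries. FOSL1 made up 16.1%, 9.17% and 12.0% in 3D, against 7.81%, 6.81% and 1.47% in 2D, the 1 share of the 7 tested in which the cultures did not overlap (exact permutation p = 0.1, adjusted p = 0.6 over 9 tests). Its share follows the sum as well as its own level, which did not pass the test.

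In the JUN family JUND made up 65.2%, 36.4% and 52.6% in 3D, against 79.2%, 79.0% and 55.6% in 2D (exact permutation p = 0.2, adjusted p = 0.6). JUNB made up 33.7%, 57.7% and 46.4% in 3D, against 17.9%, 17.7% and 40.9% in 2D (exact permutation p = 0.2, adjusted p = 0.6). JUND led in every library but 3D replicate 2, where JUNB did. JUN was at most 5.92% of the family in any library.

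**Figure D4:**
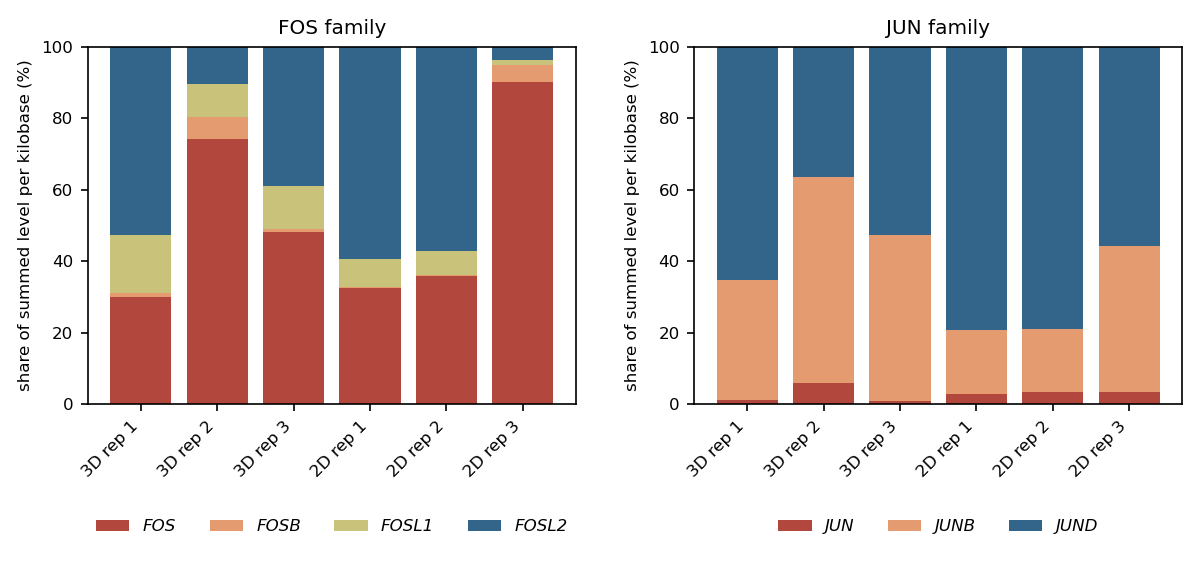
Share of each subunit in the summed level per kilobase of its family, for the 3 libraries of 3D and then the 3 of 2D. FOS reaches 74.2% in 3D replicate 2 and 90.2% in 2D replicate 3, and JUND reaches 79.2% in 2D replicate 1.

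ATF3 is a target of ATF4, the factor that translation favours when amino acids are short or proteins misfold, so it was set beside 14 tested genes of the ATF4 programme, such as CHAC1, ASNS and TRIB3. Of these 14, 0 rose and 6 fell, with a median log2 change of -1.52 against -0.02 over all tested genes, and 42.9% were thus lower, against 11.6% of all tested genes. On the recovered reads edgeR called 10 lower and DESeq2 11. Examples were PPP1R15A (410 ± 93.8 in 3D, 4296 ± 2339 in 2D), VLDLR (94.4 ± 21.6 in 3D, 637 ± 318 in 2D) and SLC7A11 (1470 ± 728 in 3D, 3871 ± 756 in 2D; SD, n = 3 each). On leaving out 2D replicate 3, where 22.6% of all tested genes were called higher and 23.0% lower, 13 fell. Dropping 3D replicate 2 left 4, where 9.03% of all tested genes fell. Dropping 2D replicate 1 left 3, where 719 of 15598 tested genes fell, against 1816 with all libraries. Dropping 2D replicate 2, replicate 1 of 3D or replicate 3 of 3D left 2 each, where 768, 698 and 656 tested genes fell.

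ATF3 and most of this list parted in 2D replicate 3. Relative to the 3D mean on the log2 scale, ATF3 stood at 3.18, 2.89 and 3.12 in 2D replicates 1, 2 and 3. The median of the 14 other genes stood at 2.53, 2.34 and 0.10 in those libraries. In 2D replicate 3 the highest of the 14 was at 2.02, so ATF3 lay above all of them, whereas in 2D replicate 1 they ran from 0.50 to 5.63. ATF4 itself had 4035, 4084 and 4152 normalised counts in 3D, against 19934, 15472 and 4982 in 2D. The drop of most of the list in 2D replicate 3 was thus not shared by ATF3. Nor was it marked in SLC7A11, at 1.374, 1.797 and 1.295 in 2D replicates 1, 2 and 3. PPP1R15A (2.02) and VLDLR (1.535) dropped but stayed well above the 3D mean there. This is a description of 1 library with no test.

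**Figure D5:**
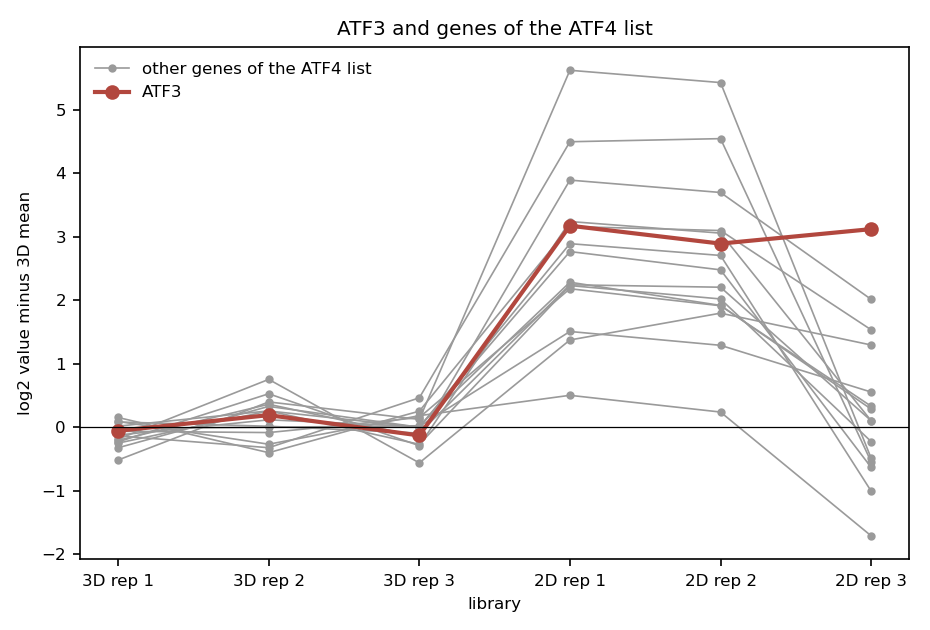
Log2 value minus the 3D mean for ATF3 and 14 other genes of the ATF4 list in each library, with a line joining the values of a gene. ATF3 stays near 3 in all 3 libraries of 2D, and the other genes have a median of 2.53, 2.34 and 0.10 there.

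Among 17 tested genes for other bZIP proteins, 0 rose and 6 fell (35.3%, against 11.6% of all tested genes), with a median log2 change of -0.87. They included JDP2, a repressor that pairs with JUN proteins (570 ± 18.5 in 3D, 2907 ± 825 in 2D; log2 -2.31), and MAFF, a small MAF protein (161 ± 29.7 in 3D, 710 ± 367 in 2D). NFE2L2, the oxidative stress factor NRF2 (2611 ± 202 in 3D, 4872 ± 1053 in 2D), and ATF5 (248 ± 20.6 in 3D, 557 ± 176 in 2D; SD, n = 3 each) fell as well. On leaving out 2D replicate 3, 12 fell, where 23.0% of all tested genes did. Dropping 3D replicate 2 left 4, where 9.03% of all tested genes fell. Dropping replicate 1 of 3D left 2, and dropping any other library left 1. Each fit without a library other than 2D replicate 3 also called fewer than the 1816 genes called lower with all libraries.

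Of 29 tested genes of the ERK, JNK and p38 pathways, 0 rose and 6 fell, with a median of -0.16; the 20.7% that fell stand against 11.6% of all tested genes. Equal library totals gave 1 risen and 3 fallen, and DESeq2 gave 1 risen. MAP3K1 (222 ± 24.3 in 3D, 526 ± 154 in 2D) and MAP3K5, kinases upstream of JNK and p38, and MAPK8, which encodes the JNK1 kinase (756 ± 136 in 3D, 1337 ± 94.8 in 2D; SD, n = 3 each), were among those that fell. On leaving out 2D replicate 3, 10 fell and 3 rose, where 23.0% and 22.6% of all tested genes did. Dropping 3D replicate 2 left 4 lower, where 9.03% of all tested genes were. Dropping replicate 3 of 3D left 0, and dropping any other library left 1. In those fits 656 to 768 of 15598 tested genes were lower, against 1816 with all libraries. Of 11 factors acting on the FOS and JUN promoters, 1 rose and 3 fell (9.09% and 27.3%, against 12.5% and 11.6% of all tested genes), with a median of -0.38. ELK3, a partner of serum response factor, rose (931 ± 329 in 3D, 198 ± 95.7 in 2D), and serum response factor itself, SRF (994 ± 44.6 in 3D, 1734 ± 156 in 2D), its coactivator MRTFA (953 ± 105 in 3D, 1835 ± 255 in 2D) and the CREB coactivator CRTC3 (2840 ± 44.7 in 3D, 5880 ± 526 in 2D; SD, n = 3 each) fell. Of these factors, 6 fell on leaving out 2D replicate 3, against 23.0% of all tested genes. On leaving out replicate 1 of 2D or of 3D, 2 fell, where 719 and 698 of 15598 tested genes did. Of 10 genes of AP-1 protein turnover, 0 rose and 3 fell, ITCH, GSK3A and DET1 (30%, against 11.6% of all tested genes), with a median of -0.29. On leaving out 2D replicate 3, 4 fell, against 23.0% of all tested genes. On leaving out 3D replicate 2, 1 fell, against 9.03% of all tested genes. The number was 0 on leaving out any other library, under equal library totals or with a replicate block. Each of these settings also called fewer genes lower than the 1816 of the main fit.

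Of 26 tested genes described as AP-1 targets, 8 rose and 7 fell (30.8% and 26.9%, against 12.5% and 11.6% of all tested genes), with a median of -0.34. PTGS2, the inducible cyclooxygenase, rose (137 ± 34.7 in 3D, 12.9 ± 3.14 in 2D), as did TGFB1 (5071 ± 668 in 3D, 1438 ± 893 in 2D) and TIMP1, an inhibitor of matrix proteases (8641 ± 1335 in 3D, 3686 ± 1628 in 2D). MMP1, an interstitial collagenase, had 128, 335 and 122 normalised counts in 3D, against 0.953, 0 and 2.06 in 2D. The growth factor gene CSF1 (65.9 ± 18.9 in 3D, 257 ± 63.8 in 2D), the receptor kinase gene AXL (1215 ± 386 in 3D, 2696 ± 263 in 2D), IL6 and EZR were among the genes that fell. The number that rose was 9 on leaving out 2D replicate 3, 6 for 3D replicate 2, 4 for replicate 1 of 3D and 3 for any other library. The number that fell was 10 on leaving out 2D replicate 3 and 8 for 3D replicate 2. It was 6 for replicate 1 or 2 of 2D, 4 for replicate 1 of 3D and 1 for replicate 3 of 3D. Without 2D replicate 3, 22.6% of all tested genes rose and 23.0% fell. Without 3D replicate 2, 1576 of 15598 tested genes rose and 1409 (9.03%) fell. Without any other library, 534 to 1025 rose and 656 to 768 fell.

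Of 20 early-response genes outside the family, 1 rose and 4 fell (5% and 20%, against 12.5% and 11.6% of all tested genes), with a median of -0.29. IER3 rose (28.1 ± 11.1 in 3D, 5.49 ± 2.31 in 2D), and NR4A3, an orphan nuclear receptor (126 ± 9.22 in 3D, 1166 ± 333 in 2D), DUSP1, a phosphatase of JNK and p38 (2108 ± 1444 in 3D, 19746 ± 14177 in 2D), KLF4 and KLF6 fell (SD, n = 3 each). On leaving out 2D replicate 3, 5 rose and 6 fell, where 22.6% and 23.0% of all tested genes did, and with a filter at a mean of 50 in place of 10, 0 rose. Dropping replicate 1 of 2D or any library of 3D left 0 risen, and dropping replicate 1 of either culture or replicate 3 of 3D left 2 fallen. Each of those fits also called fewer genes than the 1950 higher and 1816 lower with all libraries. Of 13 genes of ERK output, 2 rose, DUSP4 (1971 ± 763 in 3D, 372 ± 163 in 2D) and ETV4 (376 ± 340 in 3D, 82.8 ± 31.4 in 2D), and 2 fell, DUSP5 (103 ± 18.5 in 3D, 628 ± 415 in 2D) and EPHA2 (648 ± 187 in 3D, 1382 ± 75.6 in 2D; SD, n = 3 each), with a median of 0.24; the 15.4% in each direction lie near the 12.5% and 11.6% of all tested genes. Only 1 rose when any of the 6 libraries was left out, and 1 fell without 3D replicate 3. All of those fits but the one without 2D replicate 3 also called fewer genes higher than the 1950 with all libraries.

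Across the 6 libraries, Pearson's r of log2 values between members was highest for JUND and ATF3 (0.99), then for FOSB and JUNB (0.94), FOSL1 and JUNB (0.91) and FOS and FOSB (0.89), and lowest for FOSL1 and FOSL2 (-0.90). Such values describe 6 libraries that share their depth and the 2 cultures. Of 10464 other protein-coding genes, those with the highest r were SPTLC3, XAGE2 and RRAS2 for ATF3, and VSIG10, GNB1 and IKBKG for JUND, with GCLC and SMAD6 among the 3 for FOS. For FOSB they were SAMD9, CARNMT1 and GOLIM4, for JUNB LAMP1, ENTPD7 and TUBG1, for JUN SMAD7, FOXC2 and CHN1, for FOSL2 ZNF333, NEK9 and GAREM2, and for FOSL1 SCPEP1, ANGPTL2 and COMMD9, all with r between 0.98 and 1.00. SPTLC3, a subunit of serine palmitoyltransferase, had 68.7, 70.8 and 64.0 normalised counts in 3D, against 397, 329 and 367 in 2D. SMAD7, an inhibitor of TGF-beta signalling, had 181, 578 and 186 in 3D, against 423, 454 and 551 in 2D, with the high 3D replicate 2 seen for JUN.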

How the data were processed

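RNA of M14 cells in 3D (3 libraries) and 2D (3 libraries) was measured, and the titles gave each library's group and replicate number. RNA was extracted with a QIAGEN column kit, converted with Illumina's TruSeq v2 kit, which does not mark strand, and sequenced on a NovaSeq, per the labels' protocols. The submitters' processing notes name GRCh38/hg38, HISAT2, DESeq2 and featureCounts 1.5.0; the annotation release and other versions were not given in the sources used here, and no step beyond these is assumed. Deposited as a signal for each gene, the values are read counts that the authors divided by 1 size factor per library, as their steps show: 100% were whole reads within 0.01 of a read after division by the library's step. Recovered totals were 16567763 to 19954987 reads, and the table's 6 empty columns were not used.

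Genes with a mean of at least 10 were tested on log2(value + 1) with limma 3.58.1 in R 4.3.3 (trended eBayes, a term for culture alone), and p-values were adjusted by Benjamini-Hochberg at 0.05. This scale understates the change of low genes. On the recovered reads edgeR 4.0.16 called 3657 genes and DESeq2 1.42.0 called 4724, against 3766 by limma. Scripts were tested on simulated data. Coordinates and exon lengths came from GENCODE 29 (GRCh38), which held 26702 of 26748 genes, and symbols were found for 26506. No window of 75 bases of a member's exons was shared with another gene. Family sums and shares used values per kilobase and exact two-sided permutation tests, adjusted over 9 tests. Promoters came from RefSeq (GRCh38.p14).

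The members and gene lists were chosen with earlier results of these data known. Besides the members, up to 4 genes per list and direction with the smallest adjusted p are named, with the 3 genes of highest r per member. EGR1, ARC, KLF2, MYC, CCN1, CCN2, DUSP6, ATF4, CHAC1, ASNS and TRIB3 fall outside that rule. A few genes that the rule or a count covers are not reported here by name. Alternatives were other pseudocounts (0.1 and 10), filters (none, or a mean of at least 50), TMM and equal-total scaling, a replicate block, robust eBayes, edgeR, DESeq2, each library left out, and 2D replicate 3 and 3D replicate 2 left out together, with the longest transcript as gene length.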

Additional observations from a re-analysis of the deposited data

How the results depend on the processing

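ATF3 and JUND were called lower under all 17 alternatives, leaving out each library included. Leaving out each library in turn gave 1190 to 7111 genes called in all (3766 with all libraries), 534 to 3526 higher (1950) and 656 to 3585 lower (1816); without both 2D replicate 3 and 3D replicate 2 these were 9041, 4436 and 4605. With both left out, 2 members were called higher and 4 lower. Genes of the other lists called higher numbered 12, with 5 to 19 on leaving out a library and 22 without both, and those called lower 35, with 10 to 60 and 72.

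Leaving out a library moved log2 changes to -1.96 to 0.26 for FOS, -0.96 to 2.80 for FOSB, -1.29 to -0.65 for FOSL2, -2.42 to -0.74 for JUN and -0.054 to 1.02 for JUNB. Without both libraries FOSB was at 1.45, FOSL2 at -1.02, JUN at -2.12 and JUNB at 0.58. FOSB was at -1.53 by edgeR and -1.57 by DESeq2, FOS at -2.01 and -2.04, JUN at -0.47 and -0.50, and FOSL2 at -0.93 by DESeq2, where it was called; the DESeq2 adjusted p of FOS, FOSB and JUN was NA. Differences in family share ran from -13.7 to 16.6 percentage points for FOS, -0.730 to 2.53 for FOSB, -24.2 to 5.80 for FOSL2 and -2.20 to 0.247 for JUN on leaving out a library. The causes were not tested, beyond the smaller number of libraries.

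The replicate block left ATF3 (limma adjusted p = 0.0004) and JUND (limma adjusted p = 0.0149) as the members called, with 3222 genes called in all; under it 10 ATF4-list genes and 0 turnover genes were lower and 1 kinase gene higher. Deviations of same-numbered libraries correlated at -0.08, -0.14 and 0.04. With so few libraries per culture, 2 of them far from their fellows, such values cannot decide whether the numbers pair the libraries. The labels do not state a pairing. With all 6 libraries, the changes of FOS and FOSB were near or under their standard errors, and 16 reads of FOSB in each of 2D replicates 1 and 2 limit its level there. Without the limit at a mean of 100, set after the data were seen, 5 early-response genes and 4 AP-1 targets exceeded 1 in both libraries.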
